A study of Mus musculus with 6 samples.

Results

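The genes described are 10 genes of the T cell checkpoint system, receptors and 1 ligand, taken from the count matrix by symbol: Ctla4, Pdcd1, Lag3, Tigit, Havcr2, Icos, Btla, Cd28, Cd274 and Cd160. They are 10 of 24421 genes in the matrix, and all 10 were among the 11658 genes expressed highly enough to be tested. RNA-seq was performed on splenic CD4+YFP+ regulatory T (Treg) cells of female C57BL/6 mice aged 8 to 11 weeks. The WT group was 3 Foxp3Cre mice and the KO group 3 Foxp3Cre miR-142fl/fl mice, with 1 library per mouse and no treatment of the sorted cells. Both groups carry Foxp3Cre, in which a fusion of Cre recombinase and yellow fluorescent protein (YFP) is made from the endogenous Foxp3 promoter, so the microRNA gene was deleted in Foxp3-expressing cells of the KO mice, and the other cells of those mice kept the floxed gene. Each KO library is therefore Treg cells taken from a mouse whose Treg cells lack miR-142, and an effect in the cell cannot be told apart from an effect of the state of the mouse.

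Checkpoint receptors set how strongly a T cell responds when its antigen receptor is engaged: CD28 and ICOS add a costimulatory signal, whereas CTLA-4, PD-1, LAG-3, TIGIT, TIM-3, BTLA and CD160 are best known as brakes. Treg cells use several of them as tools of suppression, above all CTLA-4, which competes with CD28 for CD80 and CD86 on antigen-presenting cells and strips these ligands from their surface. miR-142 is a microRNA of blood cells whose hairpin gives a 5p and a 3p strand, and a microRNA lowers the output of messages that pair with its seed, the bases near its 5′ end.

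The mature mouse miR-142 strands (RefSeq, GRCm38.p6, plus strand of chromosome 11) are shown because the seed, bases 2 to 8 in capitals, sets which 3′ untranslated regions (UTRs) can pair with the microRNA that the KO cells lack. The 3p strand lies at 87756903 to 87756925 and the 5p strand at 87756867 to 87756887.
mmu-miR-142a-3p: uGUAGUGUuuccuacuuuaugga
mmu-miR-142a-5p: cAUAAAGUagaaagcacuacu
Exact 7-base matches were searched in the 3′ UTR of 1 coding transcript per gene (GENCODE vM21 annotation, GRCm38), on the sense strand only. The letters were ACACTAC for 3p, AACACTA for the 3p form that starts 1 base later, and ACTTTAT for 5p. Shorter pairing, with 6 seed bases and an A opposite base 1 of the microRNA, was searched as CACTACA for 3p, as ACACTAA for the later-starting 3p form and as CTTTATA for 5p. Neighbouring forms overlap in their letters. The forms with the A were added after the other motifs had been searched.

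Of the 10 members, 7 held at least 1 match, and Pdcd1, Lag3 and Tigit held none in 3′ UTRs of 1000, 81 and 134 bases. The AACACTA match was found in Ctla4 and in Havcr2, and the ACTTTAT match in Icos, Btla, Cd28 and Cd274, in 30-base windows with the match in capitals. Every window is read 5′ to 3′ along the message.
Ctla4, chr1:60915285-60915314, plus strand: gtttgaatataAACACTAtgtatcagtgtc
Ctla4, chr1:60915347-60915376, plus strand: gggagcttaggACACTAAtccatcaggttg
Havcr2, chr11:46479920-46479949, plus strand: ggcatatgcttAACACTAtataacttggga
Icos, chr1:60998228-60998257, plus strand: ttgatgtatatACTTTATcgaactcatgca
Btla, chr16:45252504-45252533, plus strand: tattgcactccACTTTATtctgttaaggga
Btla, chr16:45250943-45250972, plus strand: ttggatctgctCACTACAcattctagaaaa
Cd28, chr1:60770538-60770567, plus strand: gaagtaaggtcACTTTATgtaaaaaaaaaa
Cd274, chr19:29387989-29388018, plus strand: attggtgtggcACTTTATtcttttgtgttg
Cd160, chr3:96799660-96799689, minus strand: cacacacacacACACTAAataaatctttaa
Among 10786 3′ UTRs of tested genes, AACACTA was present in 10.3%, ACTTTAT in 15.9%, ACACTAC in 7.08%, and any of the 6 forms in 37.4%. Of the forms with the A, ACACTAA was present in 10.1%, CACTACA in 8.77% and CTTTATA in 15.3%. Longer UTRs hold more matches by their length: for the 7 members with a match, the share of UTRs within 20% of their length that held any match ranged from 31.4% for UTRs like that of Ctla4 to 68.4% for UTRs like that of Cd28. For Havcr2, whose 3′ UTR has 1809 bases, it was 47.3%, and for Pdcd1, Lag3 and Tigit, which held none, it was 29.8%, 2.42% and 5.86%. A match is a run of letters and does not by itself mark a site that is used.

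The targeted locus was read first. Mir142b, an annotation that overlaps the Mir142 gene on the other strand, fell: WT libraries held 6.33 ± 2.498 CPM and KO libraries 0.370 ± 0.0244 CPM (mean ± SD of 3). Its log2 fold change was -4.07, with an SE of 0.39 and a false discovery rate (FDR) of 0.00132, and Mir142 itself had 0 counts in all 6 libraries. CPM, the counts of a gene per 1000000 counts of its library after TMM normalization, is the level used throughout. Genes were tested with the quasi-likelihood F (QLF) test of edgeR, with Benjamini-Hochberg adjustment over all 11658 genes, and a gene is called where its FDR is under 0.05. Total counts were between 13883069 and 24042994 per library, so that 3 counts correspond to between 0.123 and 0.227 CPM.

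The defining markers of the sorted cells were present in every library: the summed CPM of 6 Treg cell markers (Cd3e, Cd4, Foxp3, Il2ra, Ikzf2 and Tnfrsf18) lay between 4391 and 4874 in WT and between 5919 and 7015 in KO libraries. Most of this difference was Il2ra, at 756.3 CPM in WT and 2578 CPM in KO (FDR = 0.00088). Tnfrsf18 was also called higher (FDR = 0.00877). Cd3e (FDR = 0.178) and Cd4 (FDR = 0.123) were lower in every KO library than in every WT library, without a call. Foxp3 (FDR = 0.083) was higher in every KO library than in every WT library, also without a call. Ikzf2 (FDR = 0.924) was not called, and its groups overlapped. KO replicate 1 stood apart in markers of other cells. The sum over 12 monocyte and macrophage markers was 2816 CPM there against 77.5 and 19.0 CPM in KO replicates 2 and 3 and 7.70 to 11.3 CPM in WT, and all 12 genes were highest in KO replicate 1. The sum over 12 neutrophil markers was 972.7 CPM against 16.8 and 49.1 CPM in the other KO libraries and 4.37 to 5.91 CPM in WT. Mpo and Mmp9 held 6.21 and 8.93 CPM of it in KO replicate 2 and 32.2 and 8.01 CPM in KO replicate 3. S100a8 was at 0 and 0.890 CPM in these libraries. For 9 B cell markers the sum was 318.9 CPM against 9.31 and 12.9 CPM in KO and 30.6 to 41.9 CPM in WT. For 8 dendritic cell markers it was 213.4 CPM against 40.7 and 51.1 CPM in KO and 43.5 to 47.7 CPM in WT. Outside KO replicate 1 most of that sum was Bst2, at 34.9 and 44.3 CPM in KO and 39.5 to 44.7 CPM in WT. For 9 CD8 T and natural killer cell markers the KO libraries held 104.7, 61.5 and 52.6 CPM and the WT libraries 26.9 to 29.9 CPM, but without Eomes, which was higher in every KO library, the other 8 summed to 65.7, 19.5 and 22.8 CPM in KO and 21.8 to 23.5 CPM in WT. For 7 erythroid markers the KO libraries held 13.4, 2.95 and 2.81 CPM and the WT libraries 0.885 to 1.11 CPM. A list of 7 follicular and effector T cell markers ran the other way, with 99.5, 75.8 and 64.9 CPM in KO and 198.8 to 225.8 CPM in WT libraries, although its member Il4 rose (log2 fold change 1.39, FDR = 0.00833). The fit without KO replicate 1 is therefore given beside the members' values. The part of these markers in the members' values was not tested.

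**Figure D1:**
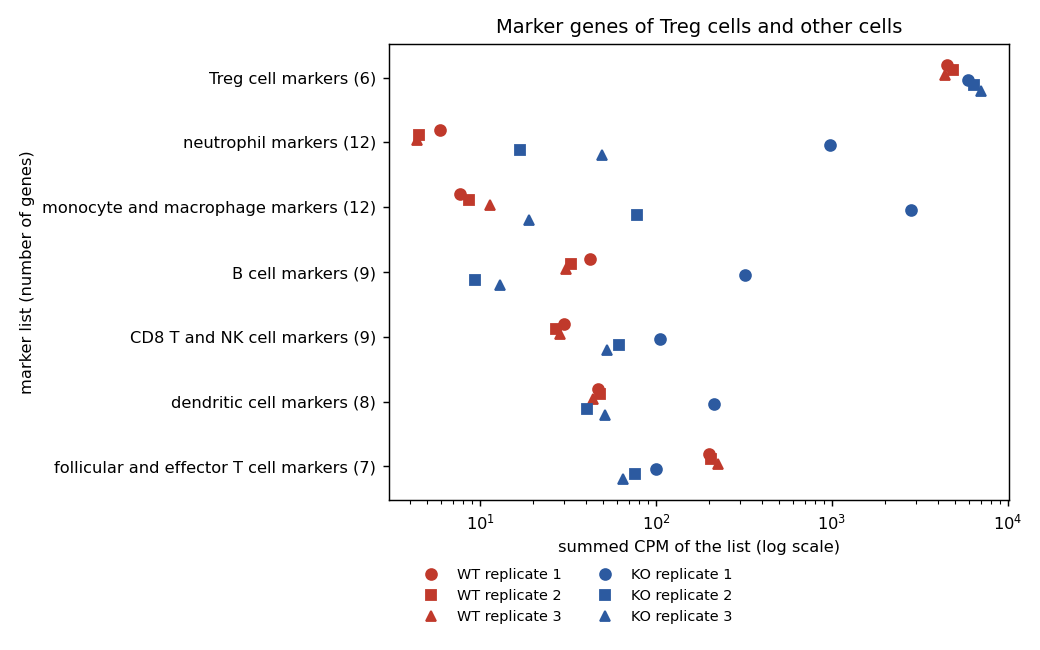
Summed CPM (log scale) of 7 marker lists in each library; red symbols are WT, blue symbols KO, and the symbol shape gives the replicate number. KO replicate 1 (blue circle) holds 2816 CPM of the monocyte and macrophage list, against 77.5 CPM or less in every other library, while the Treg cell list lies at 4391 CPM or more in all 6.

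In Treg cells without miR-142, 2 checkpoint genes rose and 1 fell. Havcr2 was 9.64-fold and Cd274 1.75-fold higher in KO than in WT cells, and Cd160 was 0.57-fold of the WT level. Ctla4, Cd28, Icos, Btla, Tigit, Lag3 and Pdcd1 did not pass the test. The share called was 30% of the members (3 of 10), against 18.8% of all tested genes. The share called higher was 2 of 10 against 11.6%, and the share called lower 1 of 10 against 7.27%. For 4 of the 10 members (Havcr2, Cd274, Pdcd1 and Cd160) the values of KO mice lay wholly to 1 side of those of WT mice, a share near that of all tested genes, 41%. The median log2 fold change over the 10 members was 0.05, against 0.02 over all tested genes. In bulk RNA, fewer cells that express a gene and less RNA per cell cannot be told apart.

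**Figure D2:**
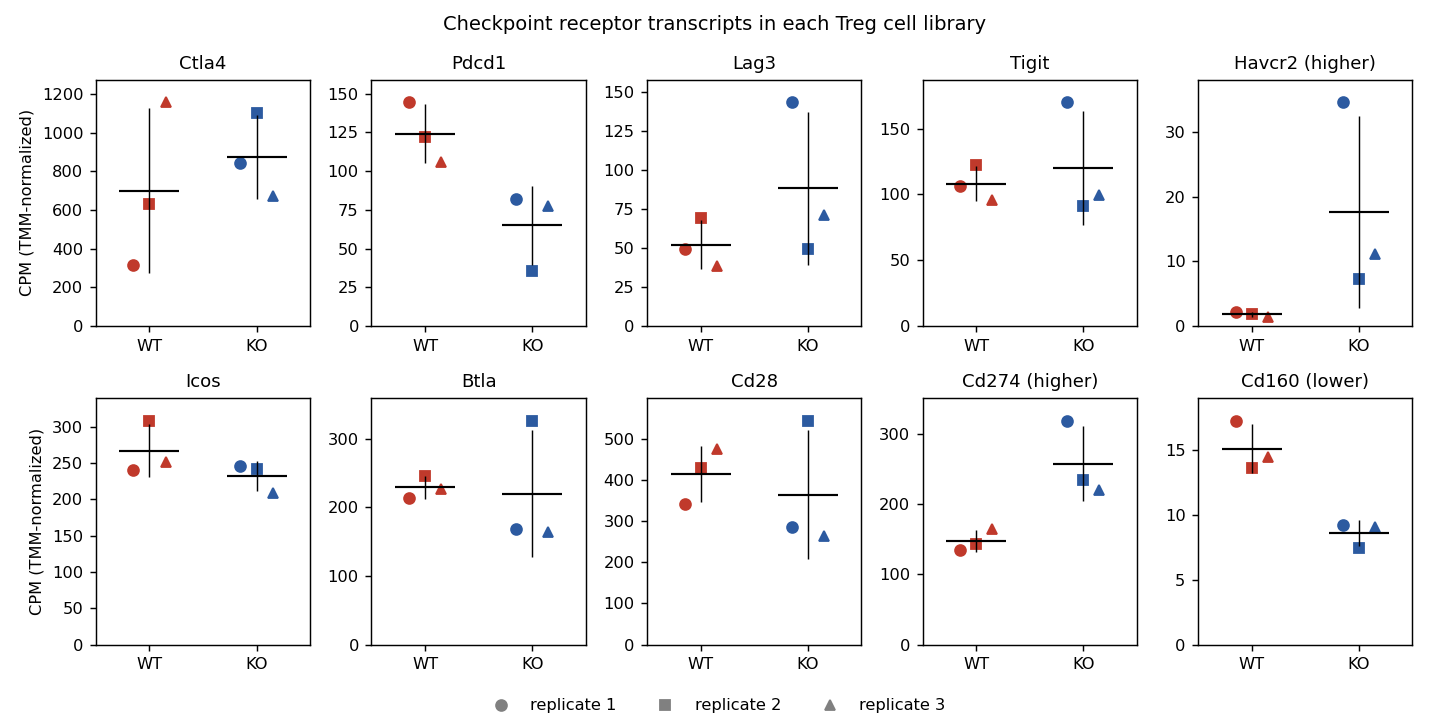
CPM on TMM-normalized library sizes of each checkpoint gene in the 3 WT (red) and 3 KO (blue) libraries, with a panel and a linear axis from 0 for each gene; the horizontal line is the group mean and the vertical line the SD. Havcr2 and Cd274 lie higher and Cd160 and Pdcd1 lower in every KO library than in every WT library, and the WT libraries of Ctla4 run from 314.8 to 1158 CPM.

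Havcr2 encodes TIM-3, an inhibitory receptor found on effector T cells, on a subset of Treg cells in inflamed tissue and on myeloid cells; it lies on chromosome 11, 46454935 to 46481255, plus strand (GRCm38). Its level was 2.22, 1.85 and 1.44 CPM in WT replicates 1, 2 and 3 (36, 45 and 26 counts), and 34.6, 7.19 and 11.2 CPM in KO replicates 1, 2 and 3 (623, 95 and 163 counts). All 3 KO libraries were above all 3 WT libraries, and KO replicate 1 held more than the other KO libraries together. The WT mean was 1.83 ± 0.390 CPM and the KO mean 17.6 ± 14.8 CPM (SD, n = 3), a log2 fold change of 3.27 (SE 0.61, 95% CI 1.85 to 4.69, FDR = 0.0126). TIM-3 is also a receptor of monocytes, macrophages and dendritic cells, whose markers were highest in KO replicate 1. Without KO replicate 1 the log2 fold change was smaller, 2.31, and called (FDR = 0.00182). The monocyte and macrophage marker sum was also higher in KO replicates 2 and 3, at 77.5 and 19.0 CPM, than in the WT libraries. In KO replicate 3 most of this sum was Vcam1, at 11.2 CPM. In KO replicate 2 every marker of the list but Cd68 was above all WT libraries. Csf1r, C1qa and C1qc were at 12.6, 6.51 and 6.74 CPM there, against 0.830, 0.387 and 0.287 CPM or less in WT. In KO replicate 3 Csf1r and C1qc were at 0.890 and 0.411 CPM, above WT, and C1qa at 0.274 CPM, within the WT range. Lyz2 was at 1.14 and 2.19 CPM in KO replicates 2 and 3, above all WT libraries. Cd68 was at 4.09 and 3.08 CPM in these libraries, below all WT libraries. These single markers were picked after their values were seen. The part of such cells in the Havcr2 values was not tested. Leaving out any 1 WT library raised the FDR to between 0.0502 and 0.0648.

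Cd274 encodes PD-L1, the ligand of PD-1, which T cells and antigen-presenting cells make in response to interferons; it lies on chromosome 19, 29367455 to 29388095, plus strand. The WT libraries held 134.7, 143.6 and 164.4 CPM and the KO libraries 319.7, 234.2 and 220.5 CPM. The highest WT library was below the lowest KO library, and the WT libraries lay closer together than the KO libraries. The means were 147.6 ± 15.2 and 258.1 ± 53.8 CPM, a log2 fold change of 0.81 (SE 0.16, 95% CI 0.44 to 1.18, FDR = 0.0148). KO replicate 1 was again the highest, and without it the log2 fold change was 0.61 (FDR = 0.00921). Without WT replicate 1 or WT replicate 2 the FDR was 0.0656 or 0.0723. An annotated transcript on the opposite strand, AC119228.1, overlaps exons of Cd274, and counting did not use strand, so reads of the pair cannot be told apart.

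Pdcd1, on chromosome 1, 94038305 to 94052553, minus strand, encodes PD-1, the receptor of PD-L1. It had 144.6, 122.1 and 106.2 CPM in the WT libraries and 81.8, 35.6 and 77.7 CPM in the KO libraries. Every KO library was below every WT library, and KO replicate 2 was the lowest of the 6. The means were 124.3 ± 19.3 and 65.0 ± 25.6 CPM, a log2 fold change of -0.93 (SE 0.30, 95% CI -1.63 to -0.24), which missed the threshold (FDR = 0.0677). It passed without KO replicate 1 (log2 fold change -1.15, FDR = 0.0325) and without KO replicate 2 (-0.63, FDR = 0.0263), and in DESeq2's Wald test (FDR = 0.0059). PD-1 is also abundant on follicular T cells, and the follicular markers Cxcr5 (log2 fold change -1.95, FDR = 0.00135) and Bcl6 (-1.27, FDR = 0.00497) were lower in KO libraries, while Il4 of the same list was higher, as given above. The part of such cells in the Pdcd1 values was not tested. Because the ratio of counts of a pair of genes within 1 library needs no normalization, the ligand was also divided by its receptor. The ratio of Cd274 to Pdcd1 counts was 0.931, 1.18 and 1.55 in WT and 3.91, 6.58 and 2.84 in KO libraries, and the groups did not overlap. This ratio was chosen after the values were seen and is given without a test.

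Cd160 encodes a receptor that binds the herpesvirus entry mediator HVEM (Tnfrsf14), the ligand it shares with BTLA; the gene lies on chromosome 3, 96798763 to 96829351, minus strand. The WT libraries held 17.3, 13.7 and 14.5 CPM and the KO libraries 9.27, 7.495 and 9.10 CPM. All KO libraries were below all WT libraries, and this was the member with the tightest KO group relative to its mean but for Icos. The means were 15.2 ± 1.91 and 8.62 ± 0.980 CPM, a log2 fold change of -0.81 (SE 0.17, 95% CI -1.20 to -0.42, FDR = 0.0174). Without KO replicate 1 it was -0.88 (FDR = 0.0166), and leaving out any 1 WT library raised the FDR to between 0.0572 and 0.0637. Exons of Pdzk1 on the opposite strand overlap those of Cd160 and reads were counted without strand; the Pdzk1 level was 9.22 ± 1.21 CPM in WT and 9.66 ± 0.404 CPM in KO (log2 fold change 0.07, FDR = 0.802).

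Btla, on chromosome 16, 45224315 to 45257670, plus strand, encodes the second HVEM receptor. Its WT libraries lay close together at 214.4, 246.4 and 226.7 CPM, and its KO libraries were at 169.2, 326.7 and 164.5 CPM. KO replicates 1 and 3 were below all WT libraries and KO replicate 2 above all of them. The log2 fold change was -0.06 (SE 0.26, 95% CI -0.67 to 0.55, FDR = 0.895). It was -0.45 (FDR = 0.0195) without KO replicate 2, and had the opposite sign without KO replicate 1 (0.08) or KO replicate 3 (0.10). Tnfrsf14, the shared ligand, was at 48.9 ± 7.02 CPM in WT and 55.1 ± 6.80 CPM in KO (log2 fold change 0.17, FDR = 0.42).

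Ctla4, Cd28 and Icos are neighbours on chromosome 1, with Cd28 at 60716800 to 60773359, Ctla4 at 60887000 to 60915832 and Icos at 60977927 to 61000320, all on the plus strand. They span 284 kb, with gaps of 114 kb and 62.1 kb between them. Ctla4 was the most variable of the 3 in WT cells, with 314.8, 628.8 and 1158 CPM in WT and 841.6, 1103 and 673.1 CPM in KO libraries. The WT libraries covered a 3.68-fold range that held all 3 KO libraries. The means were 700.5 ± 426.1 and 872.5 ± 216.6 CPM, a log2 fold change of 0.32 (SE 0.43, 95% CI -0.69 to 1.32, FDR = 0.642). The estimate ran from -0.06 (FDR = 0.919) without WT replicate 1 to 0.88 (FDR = 0.164) without WT replicate 3, so a change of either sign within the interval was not detectable with these mice. Nr4a1, an early gene of antigen receptor signalling, had 148.6, 275.4 and 1019 CPM in WT replicates 1, 2 and 3 and 240.4, 441.6 and 240.5 CPM in KO replicates 1, 2 and 3. Ctla4 and Nr4a1 thus had their lowest value of all in WT replicate 1 and their highest in WT replicate 3, and both were highest among KO libraries in KO replicate 2; the gene was singled out after its values were seen.

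Cd28, the main costimulatory receptor, was at 341.1, 428.4 and 475.3 CPM in WT and 285.8, 544.8 and 263.1 CPM in KO libraries. As with Btla, KO replicate 2 was above and the other KO libraries were below the WT range. The means were 414.9 ± 68.1 and 364.6 ± 156.5 CPM, a log2 fold change of -0.19 (SE 0.28, 95% CI -0.85 to 0.48, FDR = 0.679), and -0.59 (FDR = 0.0409) without KO replicate 2. Icos, the costimulator linked to effector Treg cells, had 240.4, 308.1 and 251.4 CPM in WT and 246.2, 242.0 and 208.6 CPM in KO libraries. Its groups overlapped and its SE was the smallest of the list, with a log2 fold change of -0.20 (SE 0.12, 95% CI -0.49 to 0.09, FDR = 0.291). The ratio of Ctla4 to Cd28 counts was 0.923, 1.47 and 2.44 in WT and 2.94, 2.02 and 2.56 in KO libraries, and the groups overlapped.

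Lag3 encodes an inhibitory receptor of major histocompatibility complex class II and lies on chromosome 6, 124904361 to 124911705, minus strand. It had 49.1, 69.3 and 38.2 CPM in WT and 143.6, 49.6 and 71.4 CPM in KO libraries. KO replicate 1 was far above the WT range, KO replicate 3 just above it and KO replicate 2 within it. The log2 fold change of 0.76 (SE 0.39, 95% CI -0.16 to 1.68, FDR = 0.217) was 0.19 (FDR = 0.64) without that library. Tigit, an inhibitory receptor of CD155 (Pvr) on chromosome 16, 43648867 to 43664146, minus strand, had 106.3, 122.0 and 95.5 CPM in WT and 170.1, 91.5 and 99.2 CPM in KO libraries. Again KO replicate 1 was above and the other KO libraries were within or below the WT range. The log2 fold change of 0.16 (SE 0.24, 95% CI -0.40 to 0.71, FDR = 0.678) was -0.20 (FDR = 0.311) without KO replicate 1.

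**Figure D3:**
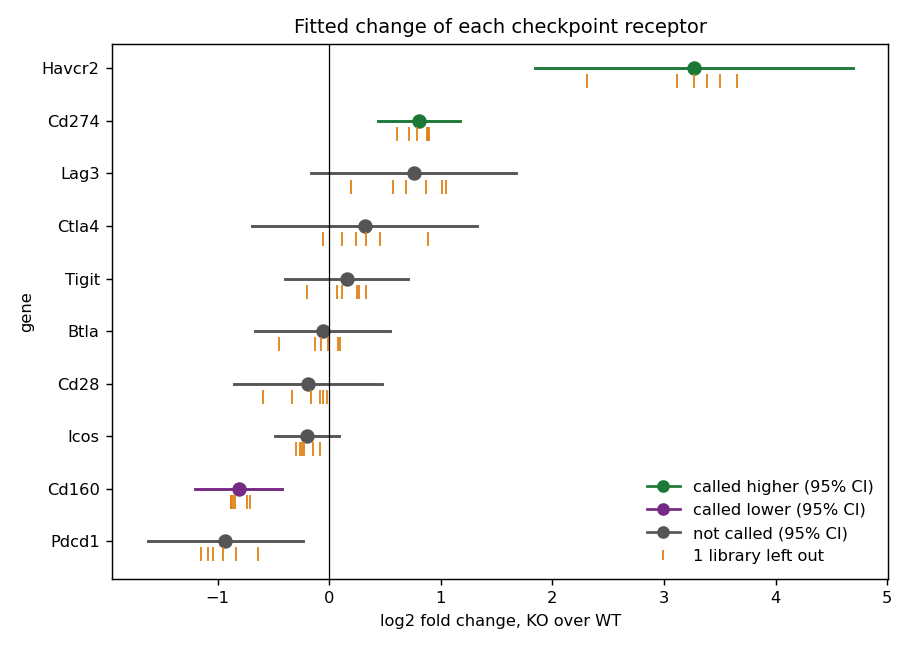
Log2 fold change of each checkpoint gene, KO over WT, from the QLF fit (point) with its 95% CI (line), and the same estimate with each of the 6 libraries left out in turn (orange ticks). The intervals of Havcr2, Cd274, Cd160 and Pdcd1 lie to 1 side of 0, and for Ctla4, Tigit and Btla the ticks fall on both sides.

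For single genes, an exact two-sided permutation test on log2(CPM + 0.5) gave p = 0.1 for Havcr2, Cd274, Pdcd1 and Cd160, the smallest value that 3 mice against 3 allow. The calls above therefore rest on the edgeR model, which combines each gene's own spread with a spread estimated across all genes. The sign of each member's log2 fold change was the same when libraries were scaled by total counts alone or by RLE size factors.

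The members did not all vary together across the KO mice. From highest to lowest, Pdcd1, Lag3, Tigit, Havcr2 and Cd160 shared the order KO replicates 1, 3 and 2. Ctla4, Btla and Cd28 shared the order 2, 1 and 3, and Icos and Cd274 the order 1, 2 and 3. KO replicate 1 was the highest KO library for Pdcd1, Lag3, Tigit, Havcr2, Icos, Cd274 and Cd160, and KO replicate 2 for Ctla4, Btla and Cd28. KO replicate 2 was also the lowest KO library for Pdcd1, Lag3, Tigit, Havcr2 and Cd160. Its level of Tcf7, a factor of resting and memory T cells, was 831.9 CPM, against 377.2 and 481.9 CPM in KO replicates 1 and 3. Its level of Bach2, a repressor of effector genes in resting T cells, was 295.1 CPM, against 150.4 and 160.5 CPM. Eomes, a factor of effector cells, was also highest among KO libraries there, at 42.0 CPM against 39.1 and 29.8 CPM, as was Nr4a1, given above. These genes were picked from the 15 listed transcription factors after their values were seen. Within KO cells the range from the lowest to the highest library was 4.81-fold for Havcr2, 2.90-fold for Lag3, 2.30-fold for Pdcd1, 2.07-fold for Cd28 and 1.99-fold for Btla, against 1.54-, 1.81-, 1.36-, 1.39- and 1.15-fold within WT cells. Tigit (1.86- against 1.28-fold) and Cd274 (1.45- against 1.22-fold) also had the wider range in KO cells. Ctla4 had the narrower range in KO cells, 1.64-fold against 3.68-fold, as had Icos, 1.18-fold against 1.28-fold, and Cd160, 1.24-fold against 1.27-fold. These are descriptions of 3 mice in each group.

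**Figure D4:**
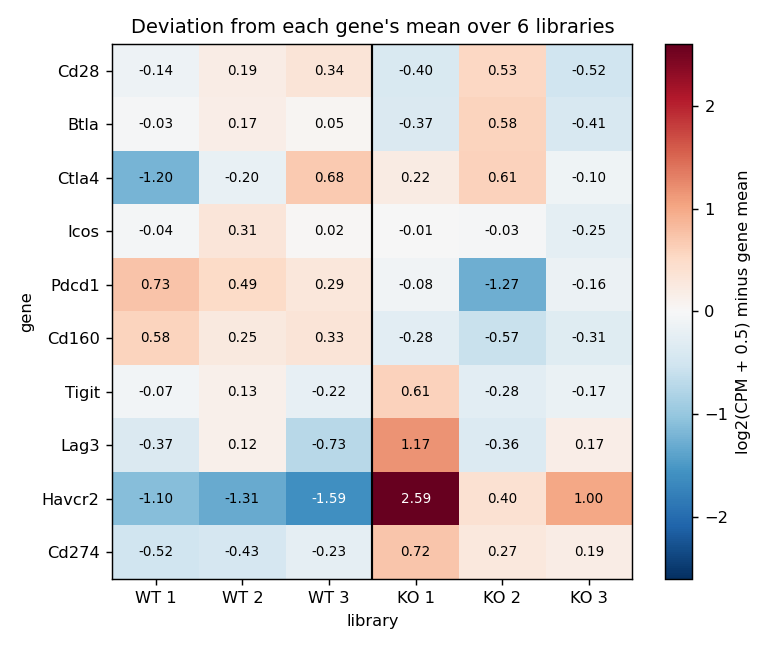
Deviation of log2(CPM + 0.5) of each checkpoint gene in each library from that gene's mean over the 6 libraries; red is above and blue below the mean, and the value is printed in each cell. Havcr2 reaches 2.59 in KO replicate 1, and Cd28, Btla and Ctla4 are above their means in KO replicate 2, where Pdcd1 is at -1.27.

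Levels of different members can be compared per length, as CPM per kilobase of annotated exon (GENCODE vM21). In WT cells Ctla4 led with 301 ± 183, followed by Tigit at 117 ± 14.5, Icos at 77.7 ± 10.6, Cd28 at 67.8 ± 11.1, Btla at 67.5 ± 4.75 and Pdcd1 at 64.4 ± 9.997 CPM per kilobase (SD, n = 3). Cd274 followed at 40.7 ± 4.21, Lag3 at 24.8 ± 7.48, Cd160 at 5.73 ± 0.726 and Havcr2 at 0.674 ± 0.143 CPM per kilobase. The libraries of Icos, Cd28, Btla and Pdcd1 overlapped, so their order is not resolved. In KO cells Cd274 was at 71.3 ± 14.8 CPM per kilobase, behind Ctla4 (374 ± 93.0) and Tigit (131 ± 47.1), with Icos (67.7 ± 6.01), Btla (64.8 ± 27.2) and Cd28 (59.6 ± 25.6) overlapping it. Pdcd1 was at 33.7 ± 13.3, below Lag3 (41.8 ± 23.3) and overlapping it. Havcr2, at 6.48 ± 5.44, and Cd160, at 3.26 ± 0.371, remained the lowest pair and overlapped each other. TIM-3 message thus stayed far below that of CTLA-4 in every KO library, at 12.7, 2.64 and 4.10 against 361, 473 and 289 CPM per kilobase.

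The ligands of these receptors were read in the same cells. Of 14 listed ligand genes, 10 were tested, and 2 were called higher and 0 lower, a called share of 20% against 18.8% of all tested genes. Cd80, a ligand of CD28, CTLA-4 and PD-L1, had 4.80, 4.63 and 5.86 CPM in WT and 14.04, 12.9 and 14.99 CPM in KO libraries. The groups were far apart and each was tight, and Cd80 rose by a log2 fold change of 1.45 (SE 0.17, FDR = 0.00275). Lgals3, galectin-3, a ligand of LAG-3 that macrophages make in quantity, rose by 3.52 on the log2 scale (SE 0.95, FDR = 0.0418). It had 116.8, 12.3 and 13.2 CPM in KO replicates 1, 2 and 3 and 2.58 to 5.31 CPM in WT, and without KO replicate 1 the log2 fold change was 1.6 (FDR = 0.00882). Lgals9, a ligand of TIM-3, was at 162.3 ± 6.40 CPM in WT and 167.6 ± 9.28 CPM in KO (log2 fold change 0.05, FDR = 0.722). Pvr, the ligand of TIGIT, was at 56.6 ± 12.1 and 42.0 ± 3.87 CPM (log2 fold change -0.43, FDR = 0.102). Icosl, the ligand of ICOS, and Ceacam1, a ligand of TIM-3, were singled out after their values were seen. Icosl had 46.7, 17.9 and 35.2 CPM in KO replicates 1, 2 and 3 and 15.4 to 18.9 CPM in WT, and was not called (log2 fold change 1.01, FDR = 0.0668). Ceacam1 had 197 counts in KO replicate 1 and 7 counts or fewer in every other library, and was not tested. The median log2 fold change of the 10 tested ligands was 0.38.

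Of 18 receptors related to the members, 13 were tested, and 4 were called lower and 2 higher, with a median log2 fold change of -0.24. The called share was 46.2%, against 18.8% of all tested genes (11.6% higher and 7.27% lower). Klrg1, an inhibitory receptor of mature effector cells, rose from 48.4 ± 9.78 to 270.7 ± 65.0 CPM (log2 fold change 2.49, SE 0.22, FDR = 0.0011). Cd2, an adhesion receptor with a costimulatory role, rose from 635.2 ± 40.2 to 890.8 ± 51.5 CPM (0.49, SE 0.10, FDR = 0.0152). Cd226 and Cd96, which bind the same ligand as TIGIT, both fell, Cd226 from 84.1 ± 5.41 to 42.5 ± 6.47 CPM (-0.99, SE 0.13, FDR = 0.00374) and Cd96 from 280.5 ± 23.3 to 186.5 ± 38.2 CPM (-0.59, SE 0.16, FDR = 0.042). Tigit itself, described above, had a log2 fold change of 0.16 that was not called. Slamf6 (-0.62, SE 0.15, FDR = 0.0297) and Cd200 (-0.48, SE 0.11, FDR = 0.0224) also fell. Cd5 (0.12, FDR = 0.346), 4632428N05Rik, which encodes VISTA (-0.03, FDR = 0.855), and Cd84 (-0.24, FDR = 0.173) were not called. Lair1, a receptor of many leukocytes that was singled out after its values were seen, had 62.0 CPM in KO replicate 1 and 2.88 CPM or less in every other library (log2 fold change 3.41, SE 1.26, FDR = 0.1).

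Downstream, 15 genes of proximal signalling were tested and 0 were called higher and 3 lower, 20% against 18.8% of all tested genes. Pik3r1, the regulatory subunit of the lipid kinase PI3K that CD28 and ICOS recruit, fell by a log2 fold change of 0.35 (FDR = 0.0334). The kinases Lck and Fyn, which phosphorylate receptor tails, had log2 fold changes of -0.35 (FDR = 0.0449) and -0.39 (FDR = 0.0397). Without KO replicate 1 the log2 fold changes of Pik3r1, Lck and Fyn were of similar size, -0.305 (FDR = 0.0622), -0.34 (FDR = 0.0719) and -0.34 (FDR = 0.0665), and none was called in this smaller fit. Prkcq, a kinase of the CD28 pathway, was then called higher (log2 fold change 0.33, FDR = 0.0493). With all libraries Prkcq had a log2 fold change of 0.22 (FDR = 0.278), Pik3cd of -0.29 (FDR = 0.0705) and Csk, the kinase that restrains Lck, of -0.27 (FDR = 0.0611).

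Of 17 genes that move, stabilize or break down checkpoint receptors or their messages, 4 were called higher and 1 lower (29.4%, against 18.8% of all tested genes), with a median log2 fold change of 0.20. Lrba, which keeps CTLA-4 from being degraded in lysosomes, had 213.0, 211.9 and 208.5 CPM in WT and 387.7, 361.2 and 317.5 CPM in KO libraries. The WT values were nearly equal and all KO values far above them, and Lrba rose by a log2 fold change of 0.75 (SE 0.10, FDR = 0.00361) while the Ctla4 message itself was not called. Cmtm4, which stabilizes PD-L1 at the cell surface, rose from 21.6 ± 2.16 to 31.3 ± 2.04 CPM (0.53, SE 0.12, FDR = 0.0231). Its relative Cmtm6 was at 206.1 ± 11.3 and 194.3 ± 4.65 CPM (-0.08, FDR = 0.494). Lax1, a membrane adaptor, fell from 190.4 ± 10.2 to 108.1 ± 11.6 CPM (-0.82, SE 0.10, FDR = 0.00325). Ap1m1 (0.31, FDR = 0.0387) and Rab11a (0.48, FDR = 0.0402), which sort membrane cargo, also rose. Without KO replicate 1 neither was called, with log2 fold changes of 0.32 (FDR = 0.0532) and 0.35 (FDR = 0.0854). Adam10 (-0.05, FDR = 0.762) and Def6 (-0.04, FDR = 0.718) were not called.

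Of 15 transcription factors known to act on checkpoint genes, 3 were called higher and 1 lower (26.7%, against 18.8% of all tested genes), with a median log2 fold change of 0.13. Eomes, a T-box factor of effector cells, rose from 5.79 ± 1.27 to 37.0 ± 6.36 CPM (2.68, SE 0.22, FDR = 0.00088); it also stands in the list of CD8 T and natural killer cell markers above. Prdm1, which encodes Blimp-1, a factor that acts on several inhibitory receptor genes, rose from 49.9 ± 10.99 to 109.3 ± 40.3 CPM (1.13, SE 0.27, FDR = 0.028). Irf1, the interferon regulatory factor that acts on the Cd274 promoter, was at 405.9 ± 42.8 and 576.4 ± 101.9 CPM and just missed the threshold (0.51, SE 0.15, FDR = 0.051), although all KO libraries were above all WT libraries. Nfatc1, which drives Pdcd1 after antigen receptor engagement, fell from 510.9 ± 13.2 to 324.6 ± 54.2 CPM (-0.65, SE 0.13, FDR = 0.0146). Tcf7 (-0.84, FDR = 0.0686) and Foxp3 (0.28, FDR = 0.083) did not pass.

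**Figure D5:**
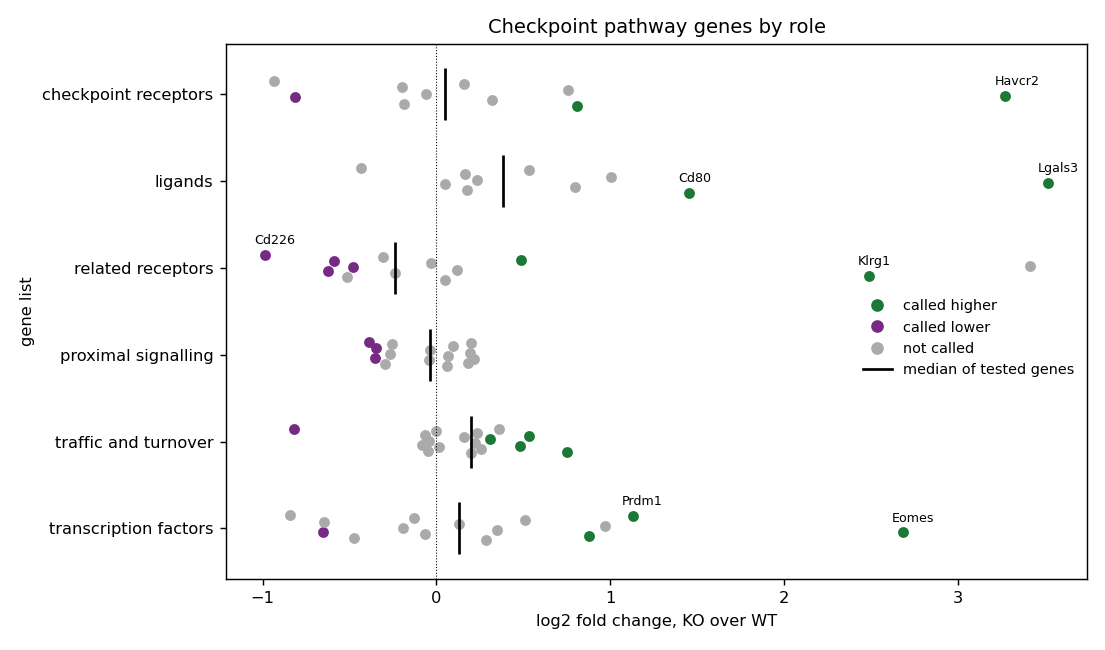
Log2 fold change, KO over WT, of every tested gene of the 10 checkpoint genes and of 5 lists of pathway genes; green points were called higher, purple points lower (FDR under 0.05) and grey points were not called, and the black bar is the median of the tested genes. Havcr2 (3.27), Lgals3 (3.52) and Eomes (2.68) lie far to the right, Lgals3 and Havcr2 at 1.6 and 2.31 without KO replicate 1, and the proximal signalling genes stay close to 0.

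The start regions of Cd274 and Havcr2 are shown because both genes rose. The sequences run from 250 bases before to 50 bases after the start in RefSeq (GRCm38.p6), 300 bases, and both are on the plus strand. Of the 10 members, 7 had an entry, and those of Pdcd1, Tigit and Cd160 are on the minus strand. The motifs searched on both strands were TTCNNNGAA (GAS, the interferon gamma-activated sequence), the interferon response factor element, GGAAA (NFAT core), TGANTCA (AP-1), AGGTGT and AGGTGTGA (T-box, the shorter within the longer) and GTAAACA (forkhead). Matches of the motifs in these windows are in capitals.
Cd274, chr19:29367188-29367487: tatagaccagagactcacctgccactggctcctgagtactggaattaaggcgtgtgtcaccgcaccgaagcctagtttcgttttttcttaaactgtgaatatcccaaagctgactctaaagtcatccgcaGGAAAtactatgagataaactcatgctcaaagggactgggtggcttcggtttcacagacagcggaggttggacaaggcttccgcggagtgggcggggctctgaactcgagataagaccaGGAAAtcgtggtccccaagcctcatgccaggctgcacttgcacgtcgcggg
Havcr2, chr11:46454681-46454980: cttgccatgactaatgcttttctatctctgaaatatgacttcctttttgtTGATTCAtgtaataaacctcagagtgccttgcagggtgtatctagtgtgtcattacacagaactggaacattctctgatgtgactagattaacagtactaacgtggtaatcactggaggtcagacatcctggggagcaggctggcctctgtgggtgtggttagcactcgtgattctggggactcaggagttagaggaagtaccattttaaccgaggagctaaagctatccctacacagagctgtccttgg
The Cd274 window held 2 GGAAA matches, and GGAAA was present in 61.3% of 32851 RefSeq start regions. The Havcr2 window held 1 TGANTCA match, present in 7.81%. TTCNNNGAA and the interferon response factor element, present in 8.3% and 3.44% of start regions, had no match in either window. Among the other members with an entry, TTCNNNGAA had 1 match, in the window of the downstream start of Cd160. AGGTGT, present in 13.7% of start regions, had 1 match in the Ctla4 window, and AGGTGTGA (1.28%) and GTAAACA (3.65%) had none in any member.

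The genes outside the list whose profile over the 6 libraries was most like that of a called member were found by Pearson's r of log2(CPM + 0.5). For Havcr2 they were Serpina3g (r = 0.999), Sh3pxd2b (0.998) and Ogfrl1 (0.997), for Cd274 Lilr4b (0.999), Itpr1 (0.994) and Kctd3 (0.993), and for Cd160 Arfgef3 (0.998), Cmtr2 (0.995) and Tesc (0.994). These are the highest values among all tested genes, over 6 libraries that fall into a pair of genotypes, and are a description.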

How the data were processed

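The checkpoint genes and the lists of ligands, related receptors, signalling, traffic and transcription factor genes and cell markers were chosen with earlier results of these data known. The authors aligned 51-base single-end reads with HISAT to mm10 and counted them per gene with featureCounts, ignoring strand. The deposited raw counts were used as deposited. Tool versions and the gene annotation are not given in the sources used here. Genes with CPM above 1 in at least 3 libraries were tested in R 4.3.3 with edgeR 4.0.16 (TMM normalization, library sizes recomputed after the filter, QLF test without robust estimation, genotype as the only term, FDR under 0.05 over all tested genes), after testing on simulated data. SE and 95% CI are from the fit; the common biological coefficient of variation was 0.212. All members were named. Of each pathway list the called genes (up to 8) and the 3 uncalled genes with the highest mean CPM were named. Bach2, Nr4a1, Icosl, Ceacam1 and Lair1 were named beyond this rule. Of marker lists the sum was given, with some single genes beside it, among them Cxcr5, Bcl6 and Il4. Ligands and receptors whose counts failed the filter were not tested, and Ly6g was not analysed here. DESeq2 1.42.0, limma 3.58.1 (used by edgeR), other scalings, filters, thresholds, a replicate block and leaving out each library were the alternatives. Proteins were not analysed. The values of 1 listed gene are not reported here.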

Additional observations from a re-analysis of the deposited data

How the results depend on the processing

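The direction reversed, with no call, for Ctla4 without WT replicate 1 (log2 fold change -0.059, against 0.883 without WT replicate 3), Tigit without KO replicate 1 (-0.196, against 0.326 without KO replicate 2) and Btla without KO replicate 1 (0.0829) or KO replicate 3 (0.0968). Btla was at -0.451, and called lower, without KO replicate 2. Leaving out each library in turn gave 0 to 2 checkpoint genes called higher and 0 to 4 called lower (4 without KO replicate 2, where Btla, Cd28 and Pdcd1 joined Cd160); ligands 1 to 3 higher; related receptors 1 to 2 higher and 1 to 5 lower; signalling genes 0 to 1 higher and 0 to 3 lower; traffic genes 1 to 5 higher; transcription factors 1 to 5 higher and 0 to 3 lower. At an FDR under 0.01, 0 checkpoint genes were higher and 0 lower, with 1 ligand, 1 related receptor, 1 traffic gene and 1 transcription factor higher and 1 related receptor, 0 signalling genes and 0 transcription factors lower. DESeq2's Wald test, the likelihood ratio test and the exact test each called 2 checkpoint genes lower, Pdcd1 and Cd160; transcription factors called lower numbered 3, 2 and 2, and DESeq2 called 6 signalling genes lower and 6 transcription factors higher. Library size alone gave 6 signalling genes and 3 transcription factors lower and 2 traffic genes higher. No filter gave 1 signalling gene lower and 2 traffic genes higher, and robust estimation 1 ligand higher. With a replicate block, 2 checkpoint genes (Pdcd1 and Cd160), 0 signalling genes and 3 transcription factors were lower and 1 traffic gene higher, and 1606 genes were called in all. Same-numbered WT and KO libraries deviated together with r = 0.0804, -0.0056 and -0.195, so the numbers were not taken to pair mice. The causes of these differences were not tested.

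Over all genes, 2197 were called, 61.4% of them higher (1350 and 847); library size alone gave 1064 higher and 1201 lower (47%), an FDR under 0.01 gave 686, and leaving out WT replicate 1, 2 or 3 gave 1022, 691 or 790, each with fewer libraries. With 3 mice per group the 95% CI of Ctla4 ran from -0.69 to 1.32 and that of Lag3 from -0.16 to 1.68, intervals that hold the log2 fold change seen for Cd274 (0.81), so a change of that size could be missed for these members.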
